A study of Mus musculus with 1699 samples.

Results

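The 39 genes described here encode proteins of the synaptic vesicle and of transmitter release. They were chosen by name from 39468 gene entries measured in single GFP-positive cells of the mouse ventral midbrain. In the Pitx3eGFP line (allele Pitx3tm1Mli) the reporter stands in the Pitx3 locus, so Pitx3eGFP/wt cells carry 1 intact Pitx3 allele and Pitx3eGFP/eGFP cells carry none. Pitx3eGFP/wt cells were sorted at 3 embryonic stages (E13.5, E15.5 and E18.5) and 3 stages after birth (P1, P7 and the adult stage P90), Pitx3eGFP/eGFP cells at E13.5 and P1, and all were sequenced with Smart-seq2. Of 1699 cells 1649 passed limits on reads and on entries detected, 56 of these had markers of oligodendrocytes and were left out, and 1593 were kept. Of these, 1237 were Pitx3eGFP/wt and the other 22.3% Pitx3eGFP/eGFP. Pitx3eGFP/wt cells of E13.5 (140 cells) were the smallest group, with 8.79% of the cells kept, and those of P90 the largest, with 20.4%. Median reads per cell lay between 753256 (Pitx3eGFP/eGFP at E13.5) and 2357898 (Pitx3eGFP/wt at E13.5). The labels tie no cell to an animal, so a stage of 1 genotype counts as a single sample, and no test between groups was possible. Levels are mean RPKM over cells, that is reads scaled to the length of the gene and to the reads of the cell. A member is called higher or lower where the means, with 1 added to each, differ at least 2-fold and 1 of them is at least 10. The share of all entries past the same limits in the same direction is given as the background. Where 6 values follow each other they are the Pitx3eGFP/wt means in order of stage, from E13.5 to P90.

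Several features of the libraries moved with stage and genotype. Tissue was dissociated with a kit for neural tissue up to E18.5, with a kit for postnatal neurons at P1 and P7 and with papain at P90. Spike-in RNA had been added to the cells of E18.5, P90 and both Pitx3eGFP/eGFP groups and to 1 plate at P1, but not to the other Pitx3eGFP/wt cells. Differences between P90 and E13.5 and between P7 and P90 cannot be told apart from both the dissociation and the spike-in, those between E18.5 and P1 from the dissociation, and those between E15.5 and E18.5 and between the genotypes at E13.5 from the spike-in. At P7 only 84 cells (53.5% of those kept) had at least 5 of 8 neuron markers over an RPKM of 10, against 92.7% or more of the cells in every other group, and the summed mean RPKM of 6 astrocyte markers was 4132 in all P7 cells and 301.3 in those 84. The P7 values are therefore given for these 84 neuron-marker cells as well. Pitx3 itself had a mean RPKM of 416 in Pitx3eGFP/wt and 18.8 in Pitx3eGFP/eGFP cells at E13.5, and of 97.3 and 7.74 at P1, while eGFP was higher in Pitx3eGFP/eGFP cells at both stages (at P1, 186.3 against 111.2).

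At a presynaptic terminal, vesicles filled with transmitter are held in clusters, brought to the active zone by Rab3 and RIM proteins, and made ready for fusion by Munc13 and CAPS proteins. The SNARE proteins of the vesicle and of the plasma membrane then zip together, complexins hold and promote this step, and synaptotagmins trigger fusion when calcium enters. NSF and its adaptors take the SNAREs apart for the next round. Dopamine neurons use the same proteins at their axonal release sites and also release transmitter from their cell bodies and dendrites.

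The synapsin I gene Syn1, for which control of neuronal transcription through its promoter is a textbook case, is shown here with the 250 bases before its start. The sequence is from RefSeq on GRCm38.p6, chrX:20920919-20921168, minus strand, and the capitals mark, in order, TCAGCACC, the left part of the RE1 element bound by the repressor REST, and TGACGTCA, the cyclic AMP response element.

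Syn1: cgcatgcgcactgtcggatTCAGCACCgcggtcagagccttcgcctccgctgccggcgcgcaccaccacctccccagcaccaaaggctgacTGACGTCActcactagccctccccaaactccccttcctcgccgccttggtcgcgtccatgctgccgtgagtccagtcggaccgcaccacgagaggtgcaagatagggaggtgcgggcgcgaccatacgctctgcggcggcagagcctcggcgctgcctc

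Of 32851 windows of this length at all gene starts, searched on both strands, 1.32% held TCAGCACC and 1.55% held TGACGTCA. Among the 42 windows of the 31 members with an entry, Syn1 held both and no other member held either. GGACAGC, the right part of the RE1 element, was not in the Syn1 window but in those of Rph3a and Sypl (4.76% of the members' windows and 5.28% of all). AAGGTCA, the NBRE without its first letter, was in that of Syt2 (2.38% and 4.08%), and the full NBRE was not searched for. The shorter TGACG, which overlaps the full element, was in 16.7% of the members' windows and 17.8% of all windows. TAATCC, a core letter run of the homeodomain type that Pitx3 belongs to, was in 9.52% of the members' windows (Syp, Sv2b and Rims3) and 6.25% of all. The members' windows were richer in G and C, with a median of 60.2% against 52.4%. A match is a run of letters and does not show that a factor binds there.

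The members as a group were highest at P90. Of the 30 members with a mean of at least 10 at E13.5 or P90, 20 were higher and 2 lower at P90, and their median log2 ratio was 1.499. Among all 8933 entries measured, 19.01% were higher and 22.3% lower. In the single cells, the median number of members over an RPKM of 10 was 15, 15, 21, 20, 13 and 23 over the 6 stages, with quartiles of 13 to 17 at E13.5 and 22 to 25 at P90, and 21 in neuron-marker cells of P7. With 100000 reads drawn from each cell the medians over all cells of each stage were the same, and that of the P7 neuron-marker cells was 21.5. The summed mean RPKM of the 39 members was 1909, 2226, 3117, 3066, 2512 and 6896 over the 6 stages, and 3871 in the neuron-marker cells of P7.

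**Figure D1:**
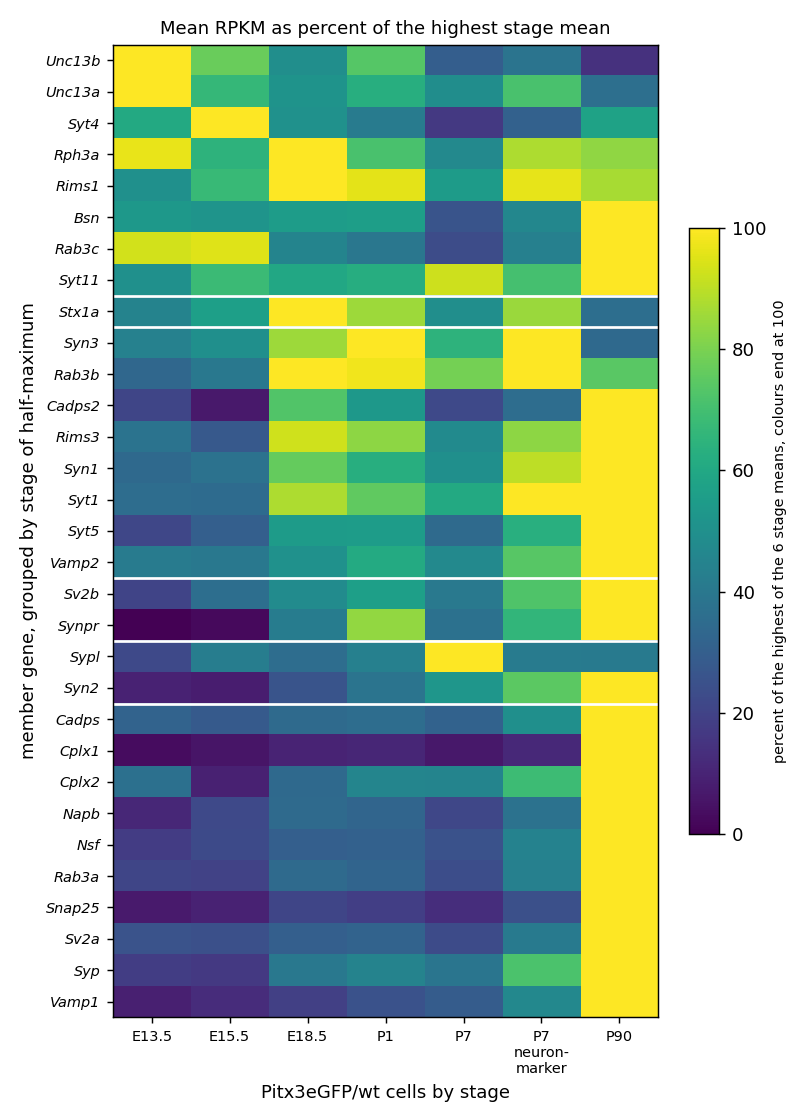
Mean RPKM of the 31 members that reached 10 at any stage, as a percent of the highest of the 6 stage means (colour, with values past 100 shown as 100), in Pitx3eGFP/wt cells by stage (columns, with P7 neuron-marker cells in a column of their own). Rows are grouped by the first stage at 50% of the highest mean, and the lowest block holds the 10 members that reached it at P90.

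Among the proteins of the vesicle membrane, 4 of the 5 measured members were higher at P90 than at E13.5 and none was lower. Syp encodes synaptophysin, the most abundant protein of small vesicles. Its means were 112.9, 103.9, 247.4, 277.2, 240.4 and 620, with 444 in neuron-marker cells of P7. It was thus measured from the first stage on, with a log2 ratio of 2.45 between P90 and E13.5. The step from E15.5 to E18.5 was past 2-fold, while that from P7 to P90 was past it over all cells but 1.398-fold in neuron-marker cells, and the 4 plates of P90 cells lay between 566 and 680. Synpr, encoding the related synaptoporin, had no read in any of the 140 cells at E13.5, which allows a share of up to 2.14% of cells with a read. Its means at the later stages were 0.827, 12.8, 25.4, 11.3 (19.9 in neuron-marker cells) and 30.3, and 37.5% of P90 cells were over 10. Of the SV2 glycoproteins, Sv2a had 46.2 at E13.5 and 180 at P90, and Sv2b had 6.31 and 30.8. Sv2c stayed under 10 at all 6 stages over all cells. Sypl, a widely expressed relative of synaptophysin, had 10.3 and 19.5, which is less than 2-fold.

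Of the synapsins, which tether vesicles in the reserve pool, Syn1 and Syn2 were higher at P90. Syn1 had means of 53.98, 59.7, 120.5, 99.1, 78.6 and 157.6, with 141.7 in neuron-marker cells of P7. Syn2 had 9.95, 8.24, 26.6, 39.5, 53.9 and 102.4, with 76.5 in neuron-marker cells of P7, and the larger ratio of the pair, a log2 of 3.24. Syn2 made up 13.7% of the summed synapsin RPKM at E13.5 and 38.4% at P90. Syn3 had 16.8 at E18.5, 19.65 at P1, 12.7 at P7 (22.4 in neuron-marker cells) and 6.73 at P90.

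Of the calcium sensors, Syt1 and Syt5 were higher at P90, and Syt4 and Syt11 were not past 2-fold. Syt11, a synaptotagmin that does not bind calcium, had the highest mean of the family at P90. Its means were 250.7, 342.3, 299.8, 312.8, 462.4 and 501.3, with 353.2 in neuron-marker cells of P7, and its fold at P90, 1.996, fell just short of the limit. Syt1, the fast calcium sensor of release, had 95.5, 93.2, 233.5, 200.9, 161.3 and 266.3, with 297.2 in neuron-marker cells of P7, so that its mean changed between E15.5 and E18.5 more than after it. Syt4, linked to large dense-core vesicles, was highest at E15.5, at 363, and had 221.3 at E13.5, 60.62 at P7 (113.3 in neuron-marker cells) and 209.2 at P90. Syt5 had 55.3 at E13.5 and 260 at P90. Syt4 made up 35.2% of the summed synaptotagmin RPKM at E13.5 and 16.8% at P90, and Syt5 8.79% and 20.9%. Syt2, Syt7 and Doc2b stayed under 10 over all cells of each stage.

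Of the 7 fusion genes, Snap25, Vamp1, Vamp2, Cplx1 and Cplx2 were higher at P90, the last only with the 18 P90 cells described further on. Snap25, the plasma membrane SNARE that binds syntaxin, had means of 93.9, 121.5, 270.4, 235.8, 170 and 1284, with P90 plates between 1191 and 1346. It was the most abundant member at P90 and 13.5-fold above E13.5, and 99.7% of P90 cells were over 10. Stx1a, the syntaxin that pairs with it, had 58.7 at E13.5, 131.7 at E18.5, 112.2 at P1 and 47.8 at P90. The partners therefore parted, and Snap25 was 61.5% of their summed RPKM at E13.5 and 96.4% at P90.

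Vamp2, the main vesicle SNARE, had 198.4 at E13.5 and 475 at P90, and 95.7% of the E13.5 cells were already over 10. Its relative Vamp1 had 5.43, 7.77, 11.5, 15.3, 17.7 and 60.6, with 28.3 in neuron-marker cells of P7, a 9.59-fold difference over the whole period, and its share of the pair was 2.66% at E13.5 and 11.3% at P90. Cplx1, encoding complexin 1, had 10.1, 16.1, 29.6, 31.1, 19.4 and 292.6, with 33.7 in neuron-marker cells of P7. This log2 ratio of 4.73 was the largest of any member with reads at E13.5, but without the 18 P90 cells described further on it was 3.57, and Snap25 then had the largest, at 3.72. The P90 mean lay far above the P90 median of 77.3, and the P90 plates ranged from 129.4 to 359.2. Cplx2 had 5.54 at E13.5 and 15.04 at P90. Those 18 cells had a Cplx2 mean of 144.5, and without them its P90 mean was under 10 and it was not called. Cplx3, a complexin of retinal ribbon synapses, was under 1 at each stage.

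Both genes that recycle SNAREs were higher at P90. Nsf, the ATPase that takes the complex apart, had means of 88.6, 112.1, 150.7, 153.1, 125.5 and 496, with 220 in neuron-marker cells of P7. Napb, its adaptor beta-SNAP, had 26.8, 52.9, 82.6, 77.8, 51.4 and 240, with 90.6 in neuron-marker cells of P7. The share of cells over 10 was 65.7% at E13.5 and 99.4% at P90 for Nsf, and 40.7% and 100% for Napb.

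The priming genes split. Unc13a and Unc13b, encoding Munc13-1 and Munc13-2, were the only members lower at P90 than at E13.5 over all cells. Within Slc6a3-high cells Unc13b was lower and Unc13a was not, with a log2 ratio of 0.02. Over all cells Unc13a had means of 25.8, 17.2, 13.2, 16.2, 12.7 and 9.42, with 18.4 in neuron-marker cells of P7 and a log2 ratio of −1.36. Unc13b had 36.1, 27.9, 17.9, 26.6, 10.8 and 5.18, with 13.9 in neuron-marker cells of P7 and a log2 ratio of −2.59, and its share of the summed Munc13 RPKM went from 57.3% to 32.5%. Both CAPS genes were higher, Cadps with 10.96 at E13.5 and 34.5 at P90, and Cadps2 with 4.77 and 22.7. The summed RPKM of the 5 priming genes was 78.8 at E13.5 and 73.2 at P90, while that of the 7 fusion genes was 372.1 and 2175. When log2 values were averaged in place of RPKM, no member was lower at P90. At that stage 14.5% of cells were over 10 for Unc13b and 24.6% for Unc13a.

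The large scaffolds of the active zone were low. Bsn had 6.49 at E13.5 and 12.2 at P90, Pclo 5.04 and 8.83, Rims1 5.99 and 10.4, and Rims2 7.06 at both. The gene length behind an RPKM differed between cells for genes with several transcripts, and for Rims1 the median length at P90 was 1.91 times that at E13.5, and its part in the ratio was not tested. Rims3, which encodes a short RIM protein, led the group with 10.6 at E13.5, 25.6 at E18.5 and 27.7 at P90. Of the Rab3 GTPases, which sit on the vesicle and bind RIM, Rab3a had means of 244.1, 229.5, 408, 380, 280 and 1175, with 512 in neuron-marker cells of P7, and its share of the summed Rab3 RPKM went from 64.4% to 84.2%. Rab3b had 65.8 at E13.5, 197.6 at E18.5 and 156.4 at P7, and was above its E18.5 mean in the neuron-marker cells of P7. Rab3c was lower at E18.5 (33.4) than at E15.5 (70.5) and had 74.2 at P90. Rph3a, encoding the Rab3 effector rabphilin, had 51.7 at E13.5 and 44.5 at P90.

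**Figure D2:**
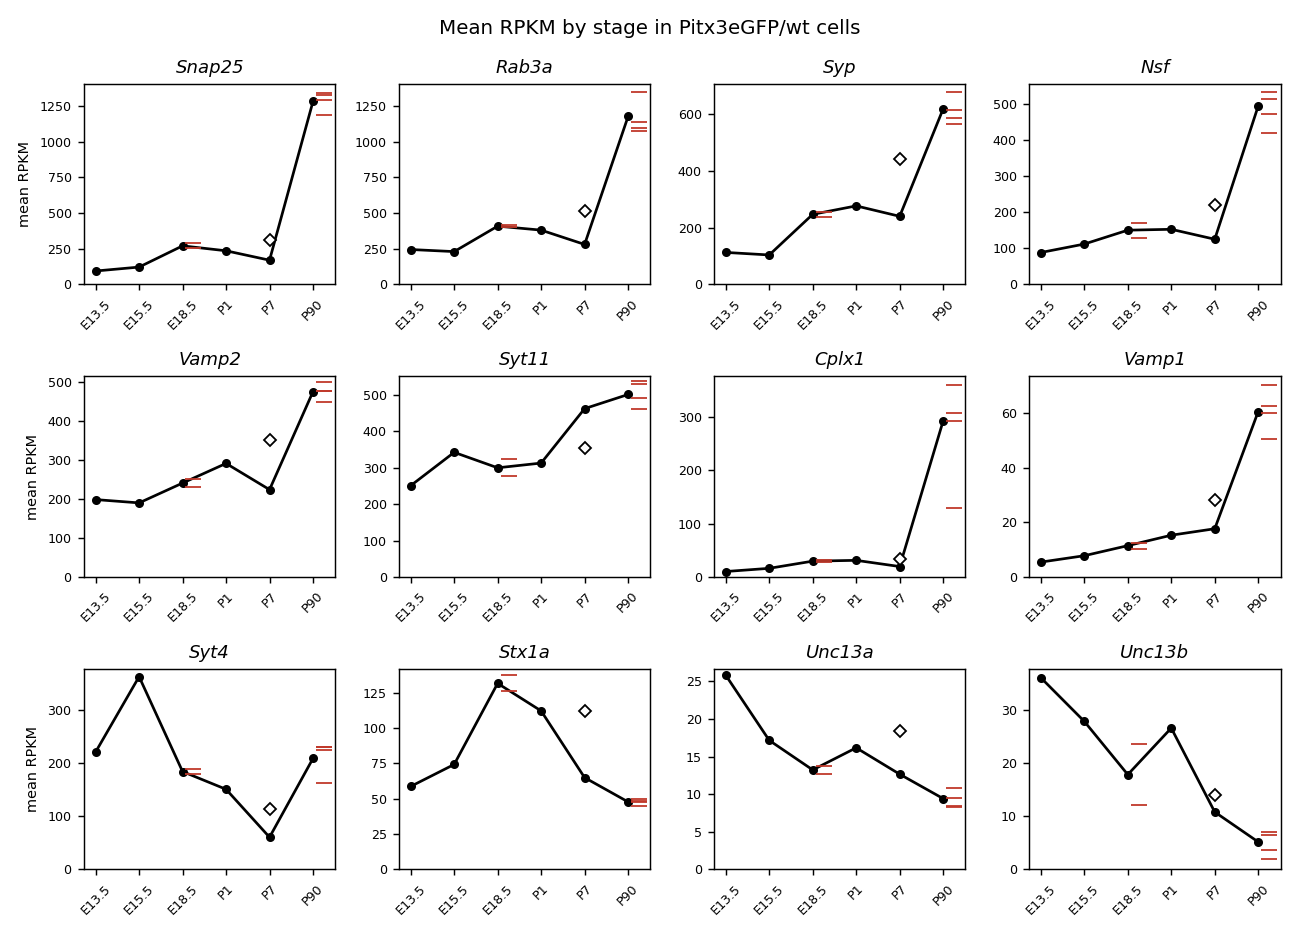
Mean RPKM (vertical axes, from 0) of 12 members by stage in Pitx3eGFP/wt cells, with filled points for all cells kept, an open diamond for P7 neuron-marker cells and red dashes for the single plates of E18.5 and P90. Snap25 ends at 1284 and Rab3a at 1175 at P90, Stx1a and Syt4 are highest before birth, and Unc13a and Unc13b are highest at E13.5.

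The steps between neighbouring stages were unequal. From E13.5 to E15.5 no member was past 2-fold (background 3.17% higher and 4.04% lower), although Stx1a was at 50% of its highest mean by E15.5. From E15.5 to E18.5, 9 of 29 measured members were higher (Syp, Synpr, Syn1, Syn2, Syt1, Snap25, Cadps2, Rims3 and Rab3b) and Rab3c was lower, against 7.81% and 3.46% of all entries. From E18.5 to P1 none was past 2-fold (3.04% and 0.247%). From P1 to P7, Sypl was higher and Synpr, Syt4, Unc13b and Cadps2 were lower (9.71% and 2.84%), but within neuron-marker cells none of 30 was past 2-fold (1.87% and 0.915%). From P7 to P90, 19 of 31 were higher and Sypl was lower (11.7% and 19.9%). Within neuron-marker cells this step held 9 higher (Sv2a, Snap25, Vamp1, Cplx1, Nsf, Napb, Cadps2, Rab3a and Rab3c) and 3 lower (Syn3, Stx1a and Unc13b), against 9.09% and 14.6%.

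The first stage at which a member reached 50% of the highest of its 6 means gave an order. At E13.5 already, 8 members were there: Syt4, Syt11, Unc13a, Unc13b, Rims1, Bsn, Rab3c and Rph3a. Stx1a followed at E15.5, and 8 more at E18.5 (Syn1, Syn3, Syt1, Syt5, Vamp2, Cadps2, Rims3 and Rab3b). Synpr and Sv2b came at P1 and Sypl and Syn2 at P7, where Sypl had 47.25 over all cells and 19.65 in neuron-marker cells. The last 10, at P90, were Syp, Sv2a, Snap25, Vamp1, Cplx1, Cplx2, Nsf, Napb, Cadps and Rab3a. The early group held 2 synaptotagmins, Unc13a and Unc13b and 2 genes of the Rab3 group, and the late group held 4 of the fusion genes and both recycling genes. The share of all entries first at 50% at each stage was not computed, so whether these times are particular to the members was not tested. Without the 18 P90 cells described further on, Cplx2 was under 10 at each stage and had no place in the order. In neuron-marker cells Syp and Cplx2 came at P7 in place of P90, Syt11 at E15.5 in place of E13.5 and Sypl at E13.5, so the late group held 8 members, 3 of them fusion genes. The other 8 members (Sv2c, Syt2, Syt7, Doc2b, Cplx3, Unc13c, Rims2 and Pclo) were under 10 at each stage, with means from 0.00155 to 8.83. Neuron-marker cells alone gave 35 of 39 members the same stage, mean log2 values 23 and reads with no scaling to gene length 28. Cells with Slc6a3 over 150, whatever their Nxph4 and Gad2, gave 20, and P90 without the 18 cells gave 36. These counts include members that were under 10 in both settings and so had no stage. The stage given to a single member thus depended on the cells and scale used.

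Cells of P90 were then divided by the genes with which the study named its lineages. Slc6a3-high cells (RPKM of the dopamine transporter over 150) numbered 66, or 20.3% of the P90 cells, and Gad2-high cells 57, or 17.5%, while Nxph4-high cells were 45.2%, each over 150 for only that gene of the 3. Each class was on all 4 plates, with 8 to 26, 9 to 20 and 18 to 51 cells a plate in the same order, and differences are given with their range over the plates. The plates are not known to be separate animals. By in situ sequencing the study placed most Pitx3-eGFP-positive cells in its lineages high in Slc6a3, and it called these underrepresented among the sequenced cells. Means and shares over all P90 cells may therefore weigh the classes otherwise than the tissue does.

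Slc6a3-high cells differed from Nxph4-high cells in 13 of 30 members. Higher were Sv2c, Syt1, Cplx1, Cplx2, Cadps2, Rims1, Bsn and Rph3a, against 4.54% of all entries, and lower were Synpr, Sv2b, Syn2, Vamp1 and Nsf, against 6.05%. Against Gad2-high cells, 8 of 31 were higher, with Sv2b in place of Bsn, against 4.99% of all entries. Lower were Syn2, Doc2b and Vamp1, or 9.68% of the members, against 6.51%. Between Nxph4-high and Gad2-high cells 27 members were measured. Sv2b was higher (3.70% against 3.28%), and Syt1 and Cadps2 were lower (7.41% against 3.10%). The Sv2b share was near the background, and the shares lower than in Gad2-high cells rested on 3 and 2 members. In these calls the members are named as a description only. Each class difference named here had the same direction on all 4 plates except Rims1. It was higher on 2 of 4 plates against Nxph4-high cells (log2 from −0.51 to 2.04) and on 3 of 4 against Gad2-high cells.

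Syt1 set the Slc6a3-high cells apart most evenly. Its mean RPKM was 766 in Slc6a3-high cells (quartiles 466 to 950), 76.3 in Nxph4-high cells (6.65 to 104.1) and 214.5 in Gad2-high cells (113.2 to 281.2), so that the lower quartile of the Slc6a3-high cells lay above the upper quartile of either other class. The log2 ratio to Nxph4-high cells was 3.31 and ranged from 2.64 to 3.63 over the plates. Syt1 made up 43.3% of the summed synaptotagmin RPKM in Slc6a3-high cells, 7.49% in Nxph4-high and 17.2% in Gad2-high cells.

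The CAPS priming factors differed by class. Cadps2 had a mean of 74.7 in Slc6a3-high, 1.68 in Nxph4-high and 24.8 in Gad2-high cells, and 77.3% (exact 95% interval 65.3 to 86.7), 6.12% (2.84 to 11.3) and 43.9% (30.7 to 57.6) of cells were over 10. Intervals here cover the counting of cells only. Cadps had 27.9, 38.8 and 33.7. In single Slc6a3-high cells both genes were over 10 in 36 of 66, Cadps alone in 11 and Cadps2 alone in 15. Cadps2 was therefore 72.8% of the CAPS RPKM in Slc6a3-high cells and 4.14% in Nxph4-high cells. Its log2 ratio between these classes, 4.82, was the largest of any member and ranged from 3.43 to 5.46 over the plates.

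Sv2c, the SV2 form known from the basal ganglia, was rarely over 10 outside Slc6a3-high cells among the 3 classes. Its means were 23.6, 0.276 and 0.968, and 45.5% (33.1 to 58.2), 0.680% (0.0172 to 3.73) and 1.75% (0.0444 to 9.39) of cells were over 10. Sv2b was highest in Nxph4-high cells, with 18.01, 48.4 and 3.52, and was the member that set Nxph4-high and Gad2-high cells apart most, at a log2 ratio of 3.45. The study designed padlock probes, which pick out a transcript in tissue sections, against Sv2c and Cadps2. Of the coding stretches they read, matched to the GRCm38 transcripts, those within a single exon are shown, because these genes had the largest ratios of Slc6a3-high to Nxph4-high cells. Against Gad2-high cells Cplx2 had the largest ratio, a log2 of 3.85, with 3.65 for Sv2c and 1.56 for Cadps2. For Cadps2 the stretches shown lie in exon 1, chr6:23838807-23838846, and exon 3, chr6:23626766-23626805, and for Sv2c in exon 2, chr13:96088650-96088689, all on the minus strand.

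Cadps2, exon 1: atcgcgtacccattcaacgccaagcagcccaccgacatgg
Cadps2, exon 3: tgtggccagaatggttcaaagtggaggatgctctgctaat
Sv2c, exon 2: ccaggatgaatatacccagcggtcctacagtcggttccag

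Other members were lower in Slc6a3-high cells. Syn2 had means of 34.5, 134.7 and 109.8 in Slc6a3-high, Nxph4-high and Gad2-high cells, and Vamp1 had 20.6, 79.3 and 82.3. Vamp1 was over 10 in 51.5% of Slc6a3-high cells (38.9 to 64.01), 85.7% of Nxph4-high cells and 87.7% of Gad2-high cells (76.3 to 94.9). Vamp2 was over 10 in each of the 66 Slc6a3-high cells, beside Vamp1 in 34 and without it in 32. Nsf had 283.7, 603 and 531, with a log2 ratio to Nxph4-high cells of −1.09 (−1.54 to −0.66 over the plates). Synpr had 12.2, 43.3 and 22.2, and Doc2b, a calcium sensor of spontaneous release, 4.18, 7.89 and 10.6. Rph3a, at 86.6, 29.5 and 28.7, was higher, as were, at smaller means, Bsn (24.8, 8.02 and 12.3) and Rims1 (19.2, 8.37 and 8.83, with the plate values above). Other abundant members were less than 2-fold apart, Syp with 641, 642 and 582 and Snap25 with 1548, 1311 and 1167.

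**Figure D3:**
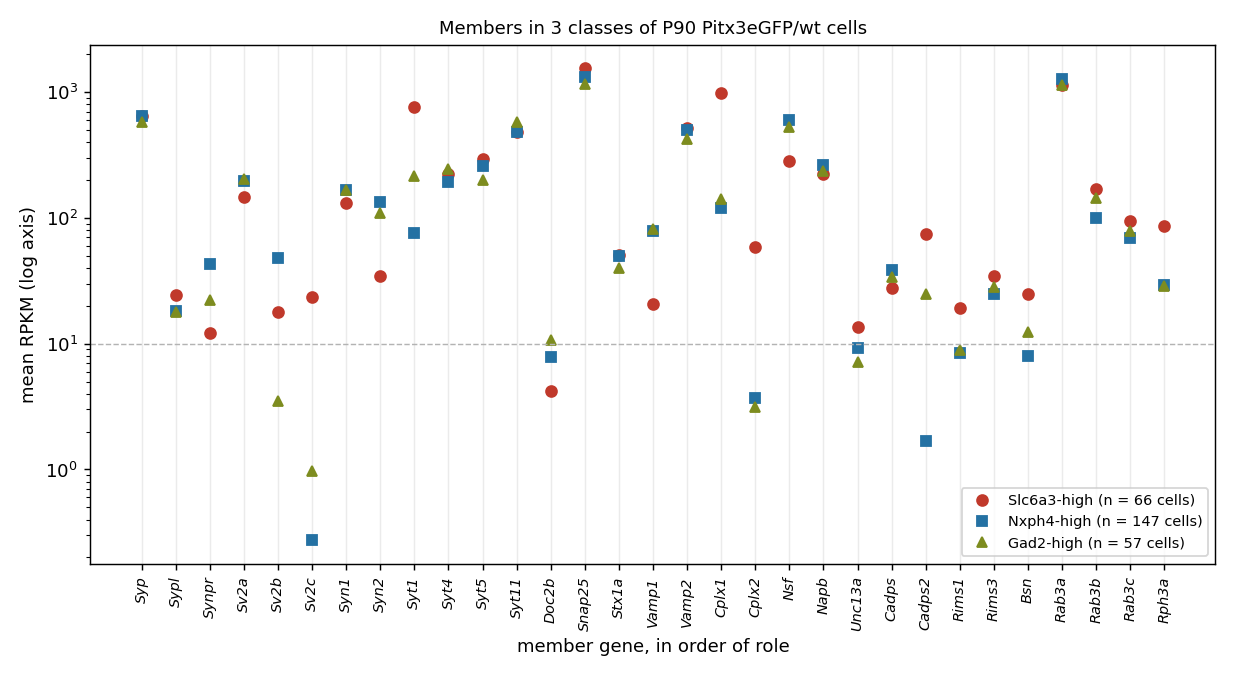
Mean RPKM (log axis) at P90 of the 31 members with a mean of at least 10 in any class, in Slc6a3-high, Nxph4-high and Gad2-high cells (points). The classes lie together at Syp, Snap25, Vamp2 and Rab3a and apart at Sv2b, Sv2c, Syt1, Cplx2 and Cadps2, and the dashed line is at 10.

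The spread of Cplx1 was wide. Its mean was 980 in Slc6a3-high, 119.5 in Nxph4-high and 142.4 in Gad2-high cells, but its medians were 138.9, 96.3 and 49.9, and fewer Slc6a3-high than Nxph4-high cells were over 10 (86.4 and 90.5%). The high mean came from part of the class: 20 of the 66 Slc6a3-high cells were over an RPKM of 500, against 1 Nxph4-high cell and 5 of 57 Gad2-high cells. After this was seen, the Slc6a3-high cells were divided by Calb1, which encodes the calcium buffer calbindin and is a textbook marker of dopamine neurons outside the most vulnerable part of the substantia nigra. With the limit of 150 used for the classes, 18 cells had low and 48 had high Calb1, and 9 cells lay within 2-fold of the limit. Calb1-low cells were on each plate (9, 4, 4 and 1 cells), and plate values are given for the 3 plates with at least 4 cells on either side.

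Cplx1 had a mean of 3053 and a median of 2763 in Calb1-low cells and a mean of 203.1 and a median of 64.1 in Calb1-high cells. Of the Calb1-low cells 15 of 18 were over 500, and of the Calb1-high cells 5 of 48. The Calb1-low cells were not alike. Those with Calb1 under 10 had Cplx1 of 2343 to 11930. Those with Calb1 of 20.5 to 147.6 had 155.3 to 909.4, which overlapped the Calb1-high cells. The log2 ratio of the Calb1-low to the Calb1-high mean was 3.90, and 3.62 to 5.11 over the 3 plates. On the fourth plate the 1 Calb1-low cell had 155.3, within the range of its 7 Calb1-high cells (1.03 to 2090). The 18 Calb1-low cells held 57.8% of the summed Cplx1 RPKM of P90 cells, and without them the P90 mean was 130.8 in place of 292.6.

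Other members differed between Calb1-low and Calb1-high cells as well. In Calb1-low cells 8 of 30 measured members were higher (Sv2b, Sv2c, Cplx1, Cplx2, Cadps, Rims1, Bsn and Rab3c) and 4 were lower (Sypl, Synpr, Syn2 and Rab3b), against 9.04% and 12.5% of all entries. The share of members that were lower was near the background, so those 4 are named as a description only. Cplx2 had means of 144.5 and 26.2 in Calb1-low and Calb1-high cells and was over 10 in 100% and 62.5% of them. Sv2c had means of 60.5 and 9.78 and medians of 37.44 and 2.06, with 485 in the highest Calb1-low cell, and was over 10 in 83.3% and 31.2%. The Rab3 paralogs went opposite ways. Rab3b had 9.48 in Calb1-low and 229.7 in Calb1-high cells (log2 −4.46, and −7.41 to −3.96 over the plates), while Rab3c had 200.7 and 55.2 (log2 1.84, and 1.85 to 2.43). Bsn had 59.1 and 11.9 and was past 2-fold on 2 of the 3 plates. Rims1 was past 2-fold on 1 plate, with medians of 8.99 and 9.78, and so were Cadps (log2 of 0.31 on the lowest plate) and Syn2 (−1.66 to −0.14).

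Members that set Slc6a3-high cells apart from the other classes did not all share this division. Syt1 had 914 and 711 in Calb1-low and Calb1-high cells, Cadps2 98.2 and 65.9, and Rph3a 67.9 and 93.7, none past 2-fold. With the 48 Calb1-high cells alone in the class, Syt1, Cplx2, Cadps2, Rph3a and Rab3b were higher than in Nxph4-high cells, and Sv2c, Cplx1, Rims1 and Bsn were no longer past 2-fold or no longer at 10. Outside the members, 10 genes of dopamine neuron types beside Calb1 were read. Slc6a3 itself had 3548 in Calb1-low and 1416 in Calb1-high cells, while Calb2, Otx2, Vip, Cck and Slc17a6 were lower in Calb1-low cells on each of the 3 plates (Cck at 491 and 2333, and Vip at 0.288 and 1649, with medians of 0 and 20.8% of Calb1-high cells over 10). Th (6056 and 5485), Aldh1a1 (3557 and 2573) and Anxa1 were less than 2-fold apart, the last 2 with plate log2 ratios of either sign, and Sox6 was under 10 in both. Median reads were 1531918 in Calb1-low and 1869409 in Calb1-high cells, with 9230 and 8928 entries detected. After thinning to 100000 reads per cell Cplx1 had 3059 and 199.4, and Rab3b 8.62 and 227.1. The part of the midbrain that these cells came from was not recorded.

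**Figure D4:**
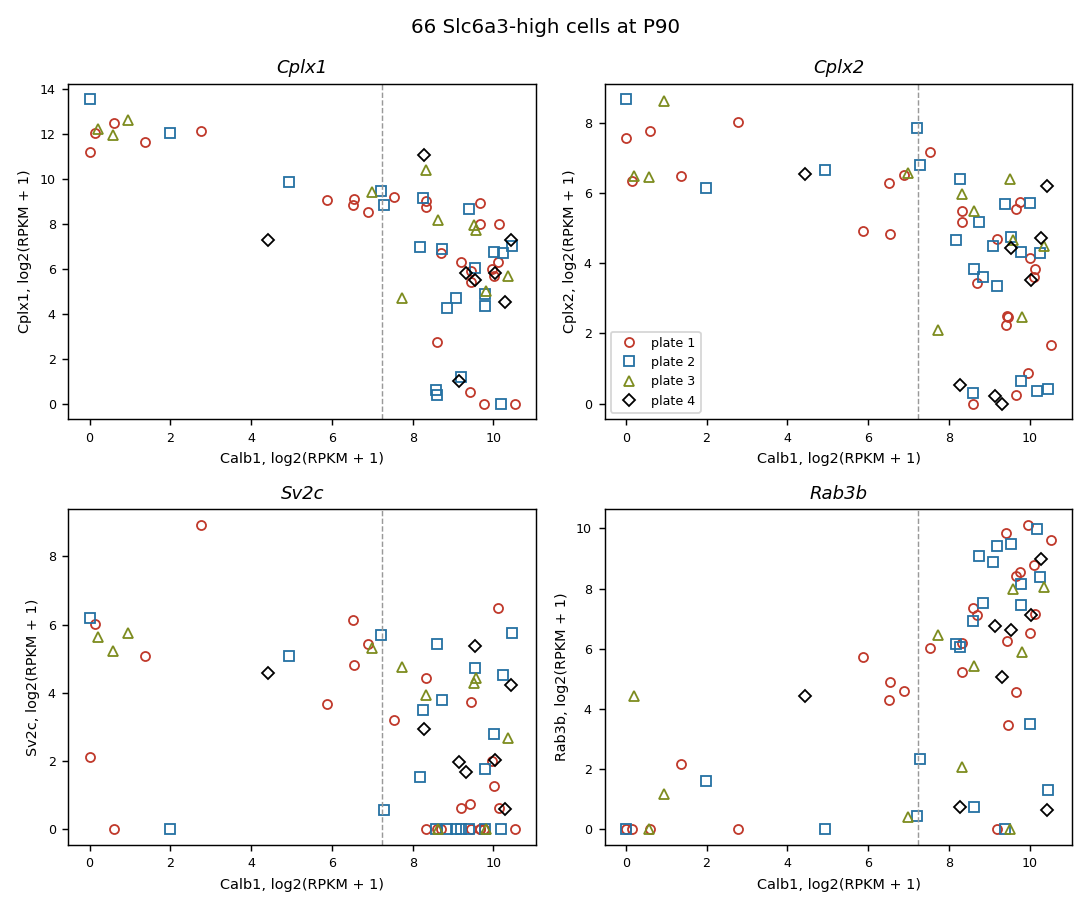
Each point is 1 of the 66 Slc6a3-high cells at P90, with Calb1 on the horizontal and Cplx1, Cplx2, Sv2c or Rab3b on the vertical axis (both log2 of RPKM + 1), a symbol for each plate and a dashed line at a Calb1 RPKM of 150. Of the 18 cells left of the line 15 are over a Cplx1 RPKM of 500, and the 48 to the right spread over the whole range of Rab3b.

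The class differences were not all present early. In Slc6a3-high against Nxph4-high cells, Syt1 and Rph3a were at least 2-fold higher at 6 of 6 stages, with log2 ratios for Syt1 of 1.47, 1.09, 2.69, 2.48, 2.59 and 3.31 in order, and for Rph3a of 2.41, 1.19, 1.78, 1.99, 2.41 and 1.52. Against Gad2-high cells Syt1 was past 2-fold at 5 stages (0.20 at E13.5) and Rph3a at 4 (0.11 at E15.5 and 0.91 at E18.5). Cadps2 was higher at the 4 stages where it was measured, from E18.5 on (log2 of 3.74, 3.53, 4.15 and 4.82), and Cplx2 at the 3 from P1 on (2.18, 2.38 and 3.66). Synpr was lower at the 4 stages from E18.5 on. Cplx1 was past 2-fold at P1 (1.76) and P90 (3.03) only, and Vamp1 turned, from 1.65 at E15.5 to −1.89 at P90. Sv2c reached a mean of 10 in neither class before P90. The division by Calb1 could be followed from E18.5 on, since earlier stages held at most 3 Calb1-high cells. At E18.5 Cplx1 had 32.6 in 45 Calb1-low and 43.3 in 34 Calb1-high Slc6a3-high cells, at P1 69.4 in 45 and 35.8 in 60, and at P7 73.7 in 8 and 25.4 in 22. Rab3b had 211.5 and 247.6 at P1, and at P7 373.2 and 230.2, the opposite order to P90.

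Within Slc6a3-high cells the members were also higher at P90 than at E13.5 (25 cells at E13.5). Of 32 measured, 22 were higher and Syn3 and Unc13b were lower, against 19.7% and 26.7% of all entries, and 14 members were higher in all cells, in Slc6a3-high cells and in Nxph4-high cells. The background within Nxph4-high cells was 22.5% higher and 24.4% lower. Syn1 and Rims3, higher over all cells, and Unc13a, lower over all cells, were not past 2-fold in Slc6a3-high cells. Sv2c, Bsn, Sypl and Syt11 were past 2-fold in Slc6a3-high cells but not over all cells. With only the 48 Calb1-high cells at P90, Sv2c (9.78) was under 10 and Bsn (11.9, against 5.67 at E13.5) was not past 2-fold. The classes entered unequally into each stage, so fewer cells of a class and less RNA per cell cannot be told apart in the means over all cells. At P90 the summed mean RPKM of the 39 members was 8204 in Slc6a3-high, 6779 in Nxph4-high and 6521 in Gad2-high cells.

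**Figure D5:**
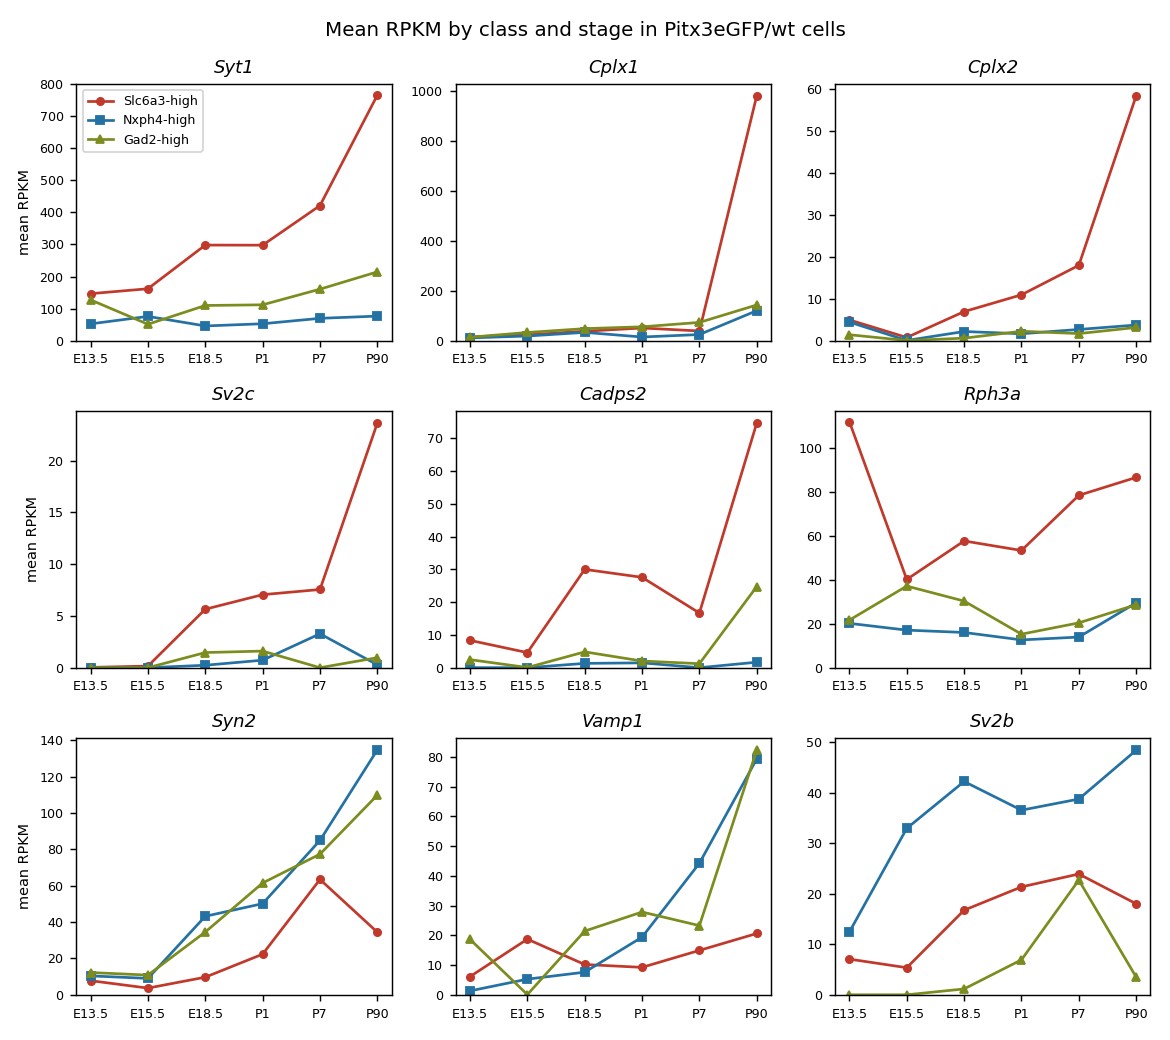
Mean RPKM (vertical axes, from 0) of 9 members by stage in Slc6a3-high, Nxph4-high and Gad2-high Pitx3eGFP/wt cells. Syt1 and Rph3a have a higher mean in Slc6a3-high than in either other class at each stage, by less than 2-fold against Gad2-high cells at E13.5 for Syt1 and at E15.5 and E18.5 for Rph3a, while Cplx1 parts from the other classes at P90, at 980 against 119.5 and 142.4.

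The genotypes were compared to see how the members stood without Pitx3. Over all cells no member with a mean of at least 10 was past 2-fold at either stage. At E13.5, 13 of 22 measured members had a higher and 9 a lower mean in Pitx3eGFP/eGFP cells, with log2 ratios from −0.70 to 0.56, and 1.42% of all entries were higher and 1.98% lower by 2-fold. The lowest ratios and the highest, 2 each way, were in Syt1 (95.5 in Pitx3eGFP/wt, 58.4 in Pitx3eGFP/eGFP), Rph3a (51.7 and 31.6), Snap25 (93.9 and 139.3) and Napb (26.8 and 35.5, or 0.39 on the log2 scale). Syt1 and Rph3a, with the lowest ratios here, are also among the members higher in Slc6a3-high than in Nxph4-high cells at 6 of 6 stages. Slc6a3-high cells numbered 25 in Pitx3eGFP/wt and 1 in Pitx3eGFP/eGFP at E13.5, and their part in these ratios was not tested. Synpr, without a read in the 140 Pitx3eGFP/wt cells, had a mean of 8.81 in Pitx3eGFP/eGFP cells, under the limit of 10, with 8 cells (4.47%) over 10 and plate means from 3.22 to 12.84. The number of members over 10 per cell was close, at medians of 15 and 16.

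At P1, 12 of 29 members had a higher and 17 a lower mean in Pitx3eGFP/eGFP cells, from −0.84 to 0.33 (background 2.27% and 1.26%). Cadps2 had 12.1 in Pitx3eGFP/wt and 6.34 in Pitx3eGFP/eGFP cells, Unc13b 26.6 and 14.5, and Cadps 12.3 and 15.3, while Syt4 was higher by a log2 ratio of 0.33. Within the 94 Pitx3eGFP/wt cells that had spike-in RNA, as the Pitx3eGFP/eGFP cells did, Cadps2 had a mean of 23.01 and was lower in Pitx3eGFP/eGFP cells by a log2 ratio of −1.71, the only member past 2-fold, against 6.27% of entries higher and 1.28% lower. Slc6a3 was over 150 in 56.4% of these 94 cells and in 9.04% of the Pitx3eGFP/eGFP cells, and the part of this in the Cadps2 value was not tested. Within all Slc6a3-high cells of P1, with or without spike-in RNA, Cadps2 had 27.6 in Pitx3eGFP/wt and 19.06 in Pitx3eGFP/eGFP cells, a log2 ratio of −0.51. Snap25 had 253.7 in Pitx3eGFP/eGFP cells, 346 in those 94 cells and 235.8 in all Pitx3eGFP/wt cells, so its direction depended on which Pitx3eGFP/wt cells it was set against.

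Within classes, between 0 and 2 of 23 to 32 measured members were past 2-fold in a direction between the genotypes, shares near or below the background in each comparison, so the members named are a description only. Among Nxph4-high cells of E13.5 (38 in Pitx3eGFP/wt, 59 in Pitx3eGFP/eGFP) Synpr was higher, at 0 and 10.36, against 5.52% of entries higher and 5.37% lower, and among E13.5 cells with no class gene no member was past 2-fold (2.99% and 3.44%). At P1, Slc6a3-high cells (16 in Pitx3eGFP/eGFP) had higher Synpr (5.18 and 18.6) and Bsn (6.09 and 15.8, with medians of 1.00 and 1.41), against 7.16% and 7.23%. Nxph4-high cells of P1 (39 and 25) had higher Cplx1 (14.1 and 29.9) and lower Unc13a (27.1 and 9.06), against 5.83% and 7.68%. P1 cells with no class gene had lower Unc13b (34.1 and 14.03), against 2.98% and 3.92%. Gad2-high cells of P1 (30 and 31) had higher Syt1, by a log2 ratio of 1.06, and lower Synpr, at 71.2 and 7.12 (medians of 0, and 863.5 in the highest Pitx3eGFP/wt cell), against 7.60% and 6.50%. Slc6a3-high and Gad2-high cells of E13.5 were not compared, since Pitx3eGFP/eGFP held 1 and 6 of them.

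Beyond the 39 members, 36 further presynaptic genes were followed, of which 35 matched an entry. Of 28 measured, 16 were higher and 3 lower at P90 than at E13.5, with the background given above. The largest ratios were in Syt12, listed at 0 at E13.5 and at a mean of 11.96 at P90, in Syngr1, encoding the vesicle protein synaptogyrin 1 (13.8 and 166.9), and in Syt10 (3.28 and 26.1). The lowest were in Erc1 (25.1 and 5.42), Erc2 (83.8 and 21.4), both active zone scaffolds that bind RIM, and Snap29 (12.9 and 3.14), a SNARE of other membranes. Of 24 measured at E13.5, Erc2 was also the only one past 2-fold between the genotypes, at 83.8 in Pitx3eGFP/wt and 37.9 in Pitx3eGFP/eGFP cells. The background was 1.98% of all entries lower, and at P1 its log2 ratio was −0.23. At P90 Erc2 had 40.8 in Slc6a3-high and 10.8 in Nxph4-high cells. It was the only 1 of 27 measured further genes that was higher there, and 2 were lower, against 4.54% and 6.05% of all entries. Against Gad2-high cells 1 of 26 was higher and 1 lower (4.99% and 6.51%). These shares were near the background, so Erc2 is named as a description only. Slc6a3-high cells numbered 25 in Pitx3eGFP/wt and 1 in Pitx3eGFP/eGFP at E13.5, and their part in the Erc2 ratio was not tested.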

How the data were processed

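Smart-seq2 libraries of single cells were aligned by the authors to mm10 with STAR, and uniquely mapped reads were counted with rpkmforgenes against Ensembl genes. The files deposited hold whole-number read counts and RPKM values per gene entry and cell, and both were used as the authors gave them. RPKM was the main unit, while counts set the limits on cells (over 100000 reads, and at least 15% of 31526 entries detected, or 3.4% at P90) and gave the reads per cell. These limits follow the study's, but its further limits on mapping, mismatches, exon reads and 3′ reads were not applied, and its percent was of all genes. The study also left out, before P90, cells that clustered with others lacking eGFP and high in Olig1. Here the marker rule below took the place of that step, and more cells were kept than in the study. Of the P7 cells kept, 55.4% were over an RPKM of 10 for eGFP. Entries without a symbol held 0.211% of reads and were left out. The cells kept in Pitx3eGFP/wt numbered, from E13.5 to P90, 140, 141, 187, 287, 157 and 325, and in Pitx3eGFP/eGFP 179 at E13.5 and 177 at P1, with 147 Nxph4-high cells at P90. Cells with at least 3 of 6 oligodendrocyte markers over an RPKM of 10 were left out. No doublet caller was run, since each library is 1 sorted well, and 26 P90 cells over 150 for more than 1 class gene entered no class.

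Means over cells were compared with 1 added, and entries under a mean of 10 in both groups were not counted. No animal is named, so each group is 1 sample, and no test, standard error or p-value over cells is given. Exact 95% intervals (Clopper-Pearson) cover the counting of cells alone. The fold rule was also run on simulated cells with known changes and no differences between animals, plates or handling. That simulation gives no rate of wrong calls between single samples such as these. The members and lists were chosen with earlier results of these data known. Named in full are the leading member of each role at P90, the 4 largest and 4 smallest ratios between P90 and E13.5, the 3 largest each way per pair of P90 classes and the 2 largest each way per genotype stage, with the 3 largest each way of the other presynaptic genes. The neuron-marker cells, the reads scaled to depth but not to gene length, the cells within classes and the division by Calb1 were chosen after the data were seen. Python 3.11.15, numpy 2.4.6, pandas 2.3.3, scipy 1.17.1, igraph 0.11.9, scikit-learn 1.9.0 and matplotlib 3.10.9 were used.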

Additional observations from a re-analysis of the deposited data

Results flagged for a closer look

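A signal of Sypl appeared in cells that enter no comparison. In the 50 oligodendrocyte-like Pitx3eGFP/wt cells left out at P1 and P7 its mean RPKM was 43.1. The Pitx3eGFP/wt neuron-marker cells of the same stages had 17.9, a log2 ratio of 1.22. Among the other members Syt11 had the next largest ratio in these cells, at 528 against 312.7, while Syt5, Stx1a and Syt1 had the lowest, with log2 ratios of −3.17, −2.69 and −2.27.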

How the results depend on the processing

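The count of members higher at P90 than at E13.5 was 20 and lay between 13 and 23 over 21 alternatives, of which 20 gave a count within 1.5 times the main one, and no named difference changed its direction where it was called. When log2 values were averaged over cells in place of RPKM, 0 members were lower at P90, 3 were past 2-fold from E13.5 to E15.5, 13 from P1 to P7, 9 were at 50% of their highest mean by E18.5, 4 and 5 were higher in Slc6a3-high than in Nxph4-high and Gad2-high cells, 1 was lower in Nxph4-high than in Gad2-high cells and 2 differed between the genotypes at E13.5. The shares within families at P90 were then 98.5% for Syp, 94.3% for Sv2a, 70.3% for Syn1, 48.05% for Syt11, 98.1% for Snap25, 94.9% for Vamp2, 87.97% for Cadps, 67.2% for Rims3, 44.3% for Bsn and 92.9% for Rab3a. With a mean of at least 1, or no filter, 3 members were past 2-fold from E13.5 to E15.5 and 1 between the genotypes at each stage. At 3-fold, 13 members were higher and 1 lower at P90, 3 changed from E15.5 to E18.5, 0 from P1 to P7 and 11 from P7 to P90, 5 were higher in Slc6a3-high cells against either class, 3 were lower than in Nxph4-high cells, and 1 was lower in Nxph4-high than in Gad2-high cells.

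With oligodendrocyte-like cells kept, or left out by cluster, 3 members changed from P1 to P7. With detection counted over all entries 1 differed between the genotypes at E13.5. Cells without spike-in put 0 members first at 50% at P7 or P90, with no P90 cells among them. Within Slc6a3-high cells 6, 5, 1, 1 and 13 members were past 2-fold over the 5 steps, and 2 between the genotypes at P1, against 1 in cells with no class gene and 1 against spike-in cells. A class limit of 50 gave 2 members higher in Nxph4-high than in Gad2-high cells. With 25% in place of 50% of the highest mean, 28 members were there by E18.5 and 2 came at P7 or P90. With reads scaled to depth but not to gene length, 4 changed from E13.5 to E15.5, 8 from P1 to P7 and 1 between the genotypes at each stage, 5 were lower in Slc6a3-high than in Gad2-high cells and 2 higher in Nxph4-high than in Gad2-high cells. Neuron-marker cells alone gave 0 from P1 to P7 and 12 from P7 to P90. Without the Calb1-low Slc6a3-high cells, 5 members were higher in Slc6a3-high cells against either class. Where no construction of the alternative gives the cause, the cause was not tested.

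Leaving out 1 plate at a time gave 0 to 2 members past 2-fold between the genotypes at E13.5 (2 without the third Pitx3eGFP/eGFP plate), 0 to 1 between the genotypes at P1 (1 without the first Pitx3eGFP/eGFP plate or without the P1 plate with spike-in), 0 to 1 from E18.5 to P1 (1 without either E18.5 plate or that P1 plate), 2 to 5 from P1 to P7 (2 without that P1 plate) and 1 to 2 higher in Nxph4-high than in Gad2-high cells (2 without the second or the fourth P90 plate). Median-ratio scaling divided all entries by 0.914 at P7 and 0.925 at P90 (−0.13 and −0.11 on the log2 scale), which raised them. No paired analysis was possible because the labels tie no cell to an animal or litter and stages and genotypes share no plate. The P90 classes share plates and are given by plate. Reads per cell limit low members most, and a mean of a few RPKM in a class of under 20 cells rests on few cells.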
